A study of Homo sapiens with 4 samples.

Results

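The 10 genes described here are those at the centre of the switch between epithelial and mesenchymal cell states, taken by name out of the 60656 genes counted, with earlier results of these data known. All 10 were found by their Ensembl identifiers. Of them 4 guard the epithelial state, namely CDH1, EPCAM, ESRP1 and GRHL2, and 6 mark or drive the mesenchymal state, namely VIM, ZEB1, ZEB2, SNAI1, SNAI2 and TWIST1. The cells were HCT116, a human colorectal carcinoma line, and the assay was TTchem-seq, which reads nascent RNA: transcripts made during a short pulse take up 4-thiouridine and are fragmented, purified and sequenced. The 2 DKO libraries come from cells labelled as a TOP2A and TOP2B double knockout. In these cells both TOP2A alleles carry the mAID degron tag, TOP2B was deleted with CRISPR/Cas9, and 500 µM auxin (indole-3-acetic acid) for 8 h removed the TOP2A protein. The 2 WT libraries carry the genotype label wildtype, and no auxin is recorded for them. The protocols also name the degron line with intact TOP2B, and the labels do not say whether the WT libraries are that line. Cells of both groups received 2 µM palbociclib, a CDK4/6 inhibitor that arrests them in G1, for 28 h, and 1 mM 4-thiouridine for a labelling time of 30 min. Loss of the topoisomerases, auxin and any difference between cell clones separate the groups together and cannot be told apart.

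Epithelial cells are held together by E-cadherin, the product of CDH1, and keep their splicing and junction programmes through factors such as ESRP1 and GRHL2. In the mesenchymal transition the repressors of the SNAI, ZEB and TWIST families bind short E-box motifs in the promoters of epithelial genes and lower their transcription, and cells lose contacts and take on filaments of vimentin, the product of VIM. ZEB1 and ZEB2 and the microRNAs of the miR-200 family repress each other, which makes the switch bistable. In carcinomas of the colon these factors are known for their link with invasion.

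The 5 mature miR-200 family members are shown because ZEB1 and ZEB2, which stood far apart in these cells, are their best known targets and because the primary transcript of 2 of them was among the genes measured. Sequences are from RefSeq (GRCh38.p14), 5′ to 3′, with the seed (bases 2 to 8) in capitals.
hsa-miR-200b-3p: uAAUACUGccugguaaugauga
hsa-miR-200c-3p: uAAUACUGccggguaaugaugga
hsa-miR-429: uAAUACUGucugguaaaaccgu
hsa-miR-200a-3p: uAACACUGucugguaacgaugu
hsa-miR-141-3p: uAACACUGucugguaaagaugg
The first 3 share the seed AAUACUG and the last 2 the seed AACACUG, and the seeds differ at 1 base. The genes of miR-200b, miR-200a and miR-429 lie together on chromosome 1, and those of miR-200c and miR-141 on chromosome 12, inside the transcript MIR200CHG.

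Of the 10 genes, 3 have promoter windows in the RefSeq table, and their 250 bases before the first listed start are shown. They set a well measured member (ZEB1) beside its nearly silent paralog (ZEB2) and the nearly silent filament gene VIM. Capitals mark CAGGTG, the E-box form that ZEB and SNAI factors bind, which was searched on both strands (CACCTG is its reverse complement).
ZEB1, chr10:31318167-31318416, plus strand: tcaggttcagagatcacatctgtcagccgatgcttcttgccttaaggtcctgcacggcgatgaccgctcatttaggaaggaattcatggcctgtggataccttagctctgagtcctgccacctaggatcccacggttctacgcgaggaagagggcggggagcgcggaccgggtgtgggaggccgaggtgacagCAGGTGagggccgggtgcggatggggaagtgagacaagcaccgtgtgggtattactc
ZEB2, chr2:144520120-144520369, minus strand: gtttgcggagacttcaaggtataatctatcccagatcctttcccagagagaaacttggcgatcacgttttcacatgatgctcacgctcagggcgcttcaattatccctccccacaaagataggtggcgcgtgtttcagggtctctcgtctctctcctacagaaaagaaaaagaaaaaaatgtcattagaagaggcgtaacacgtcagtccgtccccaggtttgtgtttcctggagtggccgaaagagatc
VIM, chr10:17227991-17228240, plus strand: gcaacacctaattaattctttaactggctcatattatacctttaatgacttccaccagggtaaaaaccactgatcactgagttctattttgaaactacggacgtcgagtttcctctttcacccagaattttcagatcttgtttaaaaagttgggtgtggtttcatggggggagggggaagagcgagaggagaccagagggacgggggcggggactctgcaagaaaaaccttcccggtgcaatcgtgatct
The ZEB1 window held 1 CAGGTG and those of ZEB2 and VIM held 0, while 17.5% of all 35116 windows in the table held at least 1. Any E-box of the form CANNTG, which includes CAGGTG, occurred 2 times in the ZEB1 window, 1 time in that of ZEB2 and 0 times in that of VIM, and 61.8% of all windows had one. The windows held 15 (ZEB1), 12 (ZEB2) and 8 (VIM) CpG dinucleotides, against a median of 11 over all windows. ZEB1 has further listed starts, whose windows are not shown. Those held 0 to 2 CAGGTG and 7 to 27 CpG dinucleotides, so these counts depend on the start taken. A match only describes these letters.

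Summed over genes, the DKO libraries held 53000795 and 53777749 reads, against 51718468 and 51142867 reads for the WT libraries. RNA of the edited genes does not check the labels, since TOP2B had 7852 and 8000 reads in DKO libraries, against 7264 and 7303 in WT libraries (log2 fold change 0.07 ± 0.05, adjusted p = 0.223), and TOP2A, whose protein is the target of auxin, was called higher (0.42 ± 0.05, adjusted p = 3.46e-15). The listed markers of colon epithelium mostly had few or no reads in both groups. CDX2, a transcription factor of the intestine, had 694 and 611 reads in DKO libraries, against 548 and 560 in WT libraries, whereas CDX1, VIL1, CDH17, KRT20, LGALS4, TFF3, MUC2 and HNF4A had between 0 and 34. Of 9 fibroblast markers only COL1A1 exceeded 6 reads in any library, and their summed level in CPM, counts scaled to a common library size, was 3.31 and 3.88 CPM in DKO libraries, against 3.66 and 4.05 CPM in WT libraries. PDGFRA, LUM and COL1A2 had 0 reads in every library. The 8 leukocyte and endothelial markers summed to 1.24 and 1.43 CPM in DKO libraries, against 1.76 and 1.86 CPM in WT libraries. Among them CSF1R was called lower, with 5 and 9 reads in DKO libraries, against 19 and 26 in WT libraries (log2 fold change -1.72 ± 0.42, adjusted p = 0.000302). For that call CSF1R passed the filter on low counts, which sets the genes tested, only through the WT libraries, where it is high. That call was lost without WT replicate 1 (adjusted p = 0.0597) or WT replicate 2 (0.0889).

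Of the 6 mesenchymal genes 4 were tested, 3 were called higher in DKO cells (TWIST1, ZEB1 and SNAI2) and 1 lower (SNAI1). The SNAI2 call rested on few reads and on single libraries. SNAI1 is on chromosome 20, where 310 of 360 tested protein-coding genes were called lower. In DKO cells TWIST1 and ZEB1 were higher by 8.49-fold and 1.89-fold, SNAI2 was higher at a very low level, SNAI1 was lower by 1.23-fold, and ZEB2 and VIM gave almost no reads in either group. On the epithelial side CDH1 and ESRP1 were lower by 1.29-fold and 1.13-fold, GRHL2 was higher by 1.14-fold and EPCAM was not called. The quasi-likelihood test of edgeR ran over 19103 genes, and a gene counts as called where its p, adjusted after Benjamini and Hochberg, is under 0.05. Of the 10 genes, 8 had enough reads to be tested, 4 were called higher and 3 lower. Over all tested genes 40.1% were called, 19% higher and 21.1% lower, so a call alone was common. Libraries of the groups did not overlap for any of the 8 tested genes, which holds for 67.9% of all tested genes. Errors on log2 fold changes are standard errors derived from the test statistic with n = 2 per group. Since these are bulk samples, a change in the share of cells that transcribe a gene and a change in RNA per cell cannot be told apart.

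**Figure D1:**
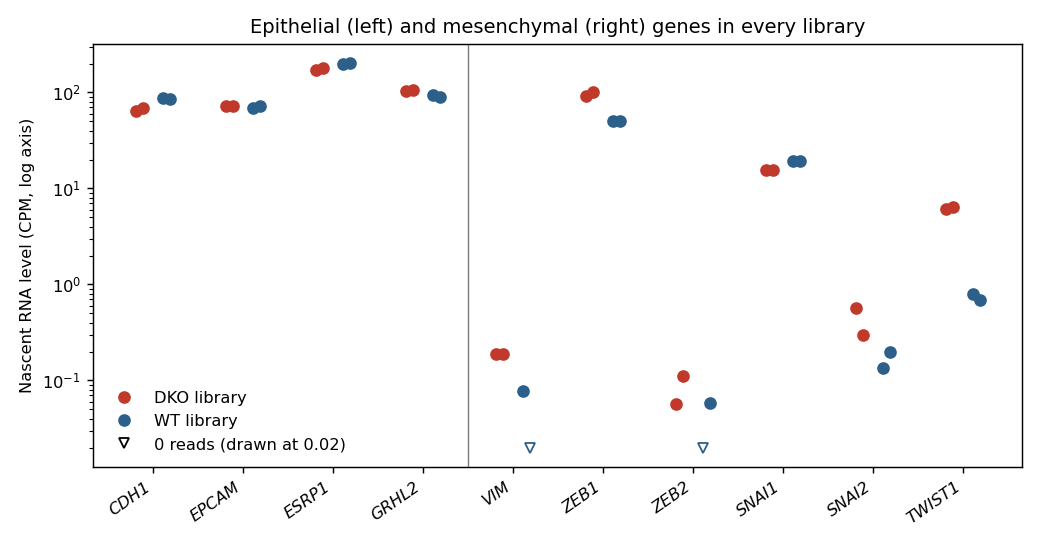
Nascent RNA level of the 10 genes in CPM on a log axis, with 1 point per library and DKO left of WT for each gene. TWIST1 is near 6 CPM in DKO and under 1 CPM in WT, ZEB1 is near 100 CPM in DKO and near 50 CPM in WT, and VIM and ZEB2 lie under 0.2 CPM throughout, with triangles for libraries with 0 reads.

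TWIST1 encodes a basic helix-loop-helix factor that drives mesenchymal identity in the embryo and in tumours. It had 325 and 345 reads in DKO libraries, against 41 and 35 in WT libraries. The lowest ratio of a DKO to a WT library in CPM was 7.72 and the highest 9.44. At 6.29 ± 0.26 CPM for DKO and 0.738 ± 0.075 CPM for WT (SD, n = 2 each), its log2 fold change was 3.09 ± 0.16 (adjusted p = 1.19e-45), while 3.22% of tested genes were called at more than 2-fold higher. With a library left out in turn the log2 fold change lay between 2.99 and 3.19, and the gene was called each time. TWIST1 is on chromosome 7 (19113047 to 19117636, hg38), whose tested protein-coding genes had a median log2 fold change of -0.03. Its paralog TWIST2 had 5 and 2 reads in DKO libraries, against 2 and 3 in WT libraries, and was not tested.

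The genes next to TWIST1 gave a mixed picture. HDAC9, a histone deacetylase gene that ends 111 kb away, had 3671 and 4215 reads in DKO libraries, against 3072 and 3103 in WT libraries (log2 fold change 0.30 ± 0.05, adjusted p = 1.65e-07), and was not called without WT replicate 1 (adjusted p = 0.14) or WT replicate 2 (0.0823). FERD3L, the nearest protein-coding gene on the other side at 27.1 kb, had 0 reads in every library.

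ZEB1 encodes a zinc finger and homeobox repressor of CDH1. It had 4871 and 5331 reads in DKO libraries, against 2597 and 2604 in WT libraries, so every DKO library stood at between 1.79 and 2 times each WT library in CPM. Means were 95.7 ± 6 CPM for DKO and 50.5 ± 0.64 CPM for WT (SD, n = 2 each), a log2 fold change of 0.92 ± 0.05 (adjusted p = 5.25e-42). The call held with each library left out, at log2 values of 0.86 to 0.99. Chromosome 10, where ZEB1 lies (31318417 to 31529804), had a median of 0.02 over its tested protein-coding genes.

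ZEB1-AS1, a long non-coding RNA transcribed from the opposite strand of the ZEB1 promoter region, moved the same way. It had 136 and 150 reads in DKO libraries, against 101 and 94 in WT libraries (log2 fold change 0.50 ± 0.15, adjusted p = 0.00442). The annotated spans of the pair overlap and the strand setting of the counting is not given, so their reads cannot be told apart with certainty. The call was lost without DKO replicate 2 (adjusted p = 0.0556), WT replicate 1 (0.102) or WT replicate 2 (0.113), and by the Wald test of DESeq2 (0.0885). The nearest protein-coding neighbours of ZEB1, ZNF438 at 286 kb (log2 fold change -0.13 ± 0.06, adjusted p = 0.0766) and the RhoGAP gene ARHGAP12 at 276 kb (0.12 ± 0.05, adjusted p = 0.0612), were not called. ARHGAP12 passed the threshold with 7 of the other settings and without DKO replicate 1 (0.17, adjusted p = 0.00959).

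ZEB2, which encodes the paralogous repressor, had 3 and 6 reads in DKO libraries, against 0 and 3 in WT libraries. The sums were 9 reads in DKO (exact 95% Poisson interval 4.12 to 17.1) and 3 reads in WT (0.619 to 8.77), and the intervals overlap. They cover counting error only. With no filter on low counts its adjusted p was 0.533. At this depth no difference was detectable. ZEB2-AS1 had 0 reads in every library.

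VIM, the vimentin gene, had 10 and 10 reads in DKO libraries, against 4 and 0 in WT libraries. Both DKO libraries were above both WT libraries, with sums of 20 reads in DKO (interval 12.2 to 30.9) and 4 reads in WT (1.09 to 10.2). The gene fell just short of the filter on low counts. That filter scales its minimum of 10 reads to library size, and the DKO libraries were the larger ones. With no filter the adjusted p of VIM was 0.215. VIM-AS1, which overlaps it, had 12 and 11 reads in DKO libraries, against 11 and 15 in WT libraries (log2 fold change -0.22 ± 0.42, adjusted p = 0.709).

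SNAI1 and SNAI2 encode related zinc finger repressors, Snail and Slug. SNAI1 had 834 and 834 reads in DKO libraries, against 990 and 993 in WT libraries. Means were 15.7 ± 0.018 CPM for DKO and 19.3 ± 0.25 CPM for WT (SD, n = 2 each), and the log2 fold change was -0.30 ± 0.07 (adjusted p = 0.000315). Leaving out WT replicate 1 (adjusted p = 0.0614) or WT replicate 2 (0.0542) ended the call, with log2 values of -0.31 and -0.29.

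SNAI1 lies on chromosome 20 (49982980 to 49988886), where read counts were lower in DKO for most tested genes. Whether the groups differ in copies of this chromosome was not tested. Of 360 tested protein-coding genes on this chromosome 310 were called lower and 9 higher, and their median log2 fold change was -0.62, against -0.03 over all 13178 tested protein-coding genes. The fall of SNAI1 was smaller than that median, and 306 of the 360 genes had a lower log2 fold change. RNF114, a ubiquitin ligase gene that ends 29.1 kb below it, had 2744 and 2662 reads in DKO libraries, against 4088 and 4110 in WT libraries (-0.65 ± 0.05, adjusted p = 5.43e-26). On the other side the nearest annotated protein-coding gene, the readthrough gene PEDS1-UBE2V1, had 2 or 3 reads per library and was not tested. A readthrough gene shares sequence with its component genes, and the assignment of shared reads is not given. These few reads therefore do not describe that side of SNAI1. The part of the chromosome-wide difference in the value of SNAI1 was not tested.

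SNAI2 had 30 and 16 reads in DKO libraries, against 7 and 10 in WT libraries. Its DKO to WT ratios ranged from 1.53 to 4.17, the widest range of the 8 tested genes. The log2 fold change was 1.37 ± 0.40 (adjusted p = 0.00294), and it met the filter minimum of 10 reads in both DKO libraries, but in only 1 of the WT libraries. The call rested on single libraries, since it was lost without DKO replicate 1 (log2 0.85, adjusted p = 0.262), WT replicate 1 (1.13, adjusted p = 0.253) or WT replicate 2 (1.66, adjusted p = 0.127). Its nearest protein-coding neighbours on chromosome 8, CLXN and PPDPFL, had at most 2 reads in any library. SNAI3, the third family member, had 45 and 41 reads in DKO libraries, against 32 and 42 in WT libraries (0.17 ± 0.25, adjusted p = 0.631).

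**Figure D2:**
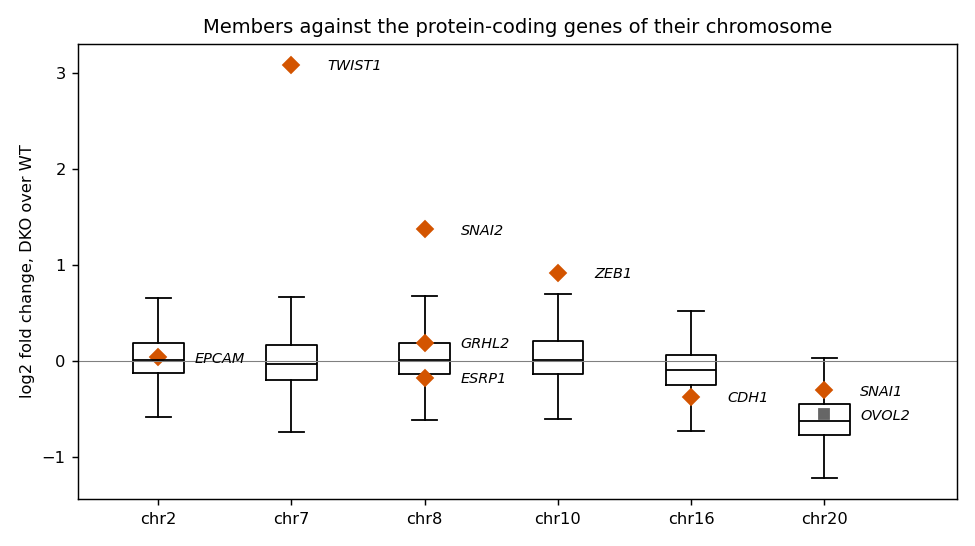
Log2 fold change of DKO over WT for the tested members (diamonds) and OVOL2 (square) beside the tested protein-coding genes of the same chromosome (box: quartiles and median, whiskers: to 1.5 times the box length, points beyond not drawn). The box of chromosome 20 lies below 0, with SNAI1 above its median of -0.62, while TWIST1, SNAI2 and ZEB1 lie above the whiskers of their chromosomes.

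CDH1, the gene of the adhesion protein E-cadherin, had 3427 and 3715 reads in DKO libraries, against 4499 and 4392 in WT libraries. Each DKO library stood at 0.742 to 0.81 of each WT library in CPM. Means were 67 ± 3.7 CPM for DKO and 86.4 ± 0.55 CPM for WT (SD, n = 2 each), a log2 fold change of -0.37 ± 0.05 (adjusted p = 5.96e-11). It was called with each library left out, at log2 values of -0.31 to -0.42, although with little margin without WT replicate 1 (adjusted p = 0.0482).

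CDH3, the P-cadherin gene that ends 3.52 kb before CDH1 on chromosome 16, fell too. It had 4541 and 4612 reads in DKO libraries, against 5553 and 5260 in WT libraries (log2 fold change -0.29 ± 0.05, adjusted p = 6.22e-08). TANGO6, 7.99 kb beyond the other end of CDH1, was not called, with 8870 and 9031 reads in DKO libraries, against 8096 and 8516 in WT libraries (0.06 ± 0.05, adjusted p = 0.347). The median over chromosome 16 was -0.09. The groups overlapped in neither cadherin gene.

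ESRP1 encodes the splicing regulator that keeps epithelial exons in many transcripts, and it was the member with the most reads. It had 9204 and 9669 reads in DKO libraries, against 10253 and 10303 in WT libraries. The difference was small, at 177 ± 6 CPM for DKO and 200 ± 2.8 CPM for WT (SD, n = 2 each), with a log2 fold change of -0.17 ± 0.05 (adjusted p = 0.00131). The call was lost without WT replicate 1 (adjusted p = 0.111) or WT replicate 2 (0.124), and with no filter on low counts (0.0581).

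GRHL2, a grainyhead factor that activates CDH1 and junction genes, went the other way. It had 5478 and 5634 reads in DKO libraries, against 4833 and 4555 in WT libraries. Means were 104 ± 2 CPM for DKO and 91.2 ± 2.8 CPM for WT (SD, n = 2 each), and the log2 fold change was 0.19 ± 0.05 (adjusted p = 0.000356). As for ESRP1, the call ended without WT replicate 1 (adjusted p = 0.0712) or WT replicate 2 (0.109), and with no filter (0.0581). Both genes are on chromosome 8, whose median was 0.01.

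Around ESRP1 the neighbours VIRMA, which encodes a subunit of the RNA adenosine methyltransferase (log2 fold change 0.04 ± 0.05, adjusted p = 0.512), and DPY19L4 (-0.10 ± 0.05, adjusted p = 0.0841) were not called. Around GRHL2 they moved apart. NCALD, a neuronal calcium sensor gene 5.34 kb away, had 171 and 184 reads in DKO libraries, against 38 and 40 in WT libraries (2.13 ± 0.18, adjusted p = 1.54e-23). ZNF706, 286 kb away on the other side, fell (-0.19 ± 0.05, adjusted p = 0.00111), but not without WT replicate 1 (0.132) or WT replicate 2 (0.104).

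EPCAM, the gene of an epithelial surface protein, had 3883 and 3853 reads in DKO libraries, against 3590 and 3677 in WT libraries. At 72.6 ± 0.48 CPM for DKO and 70.6 ± 1.9 CPM for WT (SD, n = 2 each) its log2 fold change was 0.04 ± 0.05 (adjusted p = 0.557). EPCAM-DT, the annotated divergent transcript on its upstream side, was not called either, with 288 and 306 reads in DKO libraries, against 261 and 248 in WT libraries (0.17 ± 0.11, adjusted p = 0.213).

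Ratios of counts within a library involve no scaling between libraries and show the same shifts. ZEB1 had 1.42 and 1.43 reads per CDH1 read in DKO libraries, against 0.577 and 0.593 in WT libraries. GRHL2 had 0.595 and 0.583 reads per ESRP1 read in DKO libraries, against 0.471 and 0.442 in WT libraries. SNAI1 per CDH1 read stood at 0.243 and 0.224 in DKO libraries, against 0.22 and 0.226 in WT libraries, and there the groups overlapped. TWIST1 per SNAI1 read stood at 0.39 and 0.414 in DKO libraries, against 0.0414 and 0.0352 in WT libraries.

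Levels were compared between genes as CPM per kb of annotated gene span, because exon lengths were not used here. In DKO cells EPCAM led at 4.1 ± 0.027, followed by ESRP1 (2.67 ± 0.09) and SNAI1 (2.65 ± 0.003), which lay within their spread of each other, then TWIST1 (1.37 ± 0.056), CDH1 (0.682 ± 0.038), GRHL2 (0.552 ± 0.01), ZEB1 (0.453 ± 0.028) and SNAI2 (0.113 ± 0.049). In WT cells the order was EPCAM (3.99 ± 0.11), SNAI1 (3.26 ± 0.042), ESRP1 (3.01 ± 0.043), CDH1 (0.879 ± 0.0056), GRHL2 (0.483 ± 0.015), ZEB1 (0.239 ± 0.003), TWIST1 (0.161 ± 0.016) and SNAI2 (0.0432 ± 0.011), all SD with n = 2. Apart from ESRP1 and SNAI1 in DKO, neighbours in these orders lay farther apart than their SDs together. VIM (0.0201 in DKO and 0.00412 in WT) and ZEB2 (0.000621 in DKO and 0.000216 in WT) were last in both groups. TWIST1 stood 4th in DKO and 7th in WT. If only exons were counted, the long genes ZEB1, GRHL2, ZEB2, CDH1 and ESRP1 would stand too low on this scale. That bears on the order of ESRP1 and SNAI1, and of ZEB2 and VIM.

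Paralogs and partners of the members were next. GRHL1, a paralog of GRHL2, rose, with 1065 and 1093 reads in DKO libraries, against 745 and 648 in WT libraries (log2 fold change 0.58 ± 0.07, adjusted p = 6.73e-12). OVOL2, a zinc finger repressor of ZEB1 that protects the epithelial state, fell, with 565 and 615 reads in DKO libraries, against 833 and 839 in WT libraries (-0.55 ± 0.08, adjusted p = 1.1e-09). OVOL2 is on chromosome 20, and its value is close to that chromosome's median of -0.62. Its relative OVOL1 passed the threshold narrowly (-0.23 ± 0.10, adjusted p = 0.0456), and missed it in most other settings (adjusted p of 0.0516 to 0.4), among them without DKO replicate 2 (0.243), WT replicate 1 (0.4) or WT replicate 2 (0.0922). ESRP2, which shares the splicing role of ESRP1 (-0.10 ± 0.09, adjusted p = 0.402), and GRHL3 (0.51 ± 0.28, adjusted p = 0.136) were not called.

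MIR200CHG, the host transcript of miR-200c and miR-141, whose sequences are given above, had 657 and 605 reads in DKO libraries, against 741 and 682 in WT libraries. The log2 fold change was -0.22 ± 0.08 (adjusted p = 0.0211), and every DKO library was below every WT library. The call was lost without DKO replicate 2 (adjusted p = 0.197), WT replicate 1 (0.266) or WT replicate 2 (0.103), and with upper quartile scaling (0.0512). The hairpin genes had too few reads to be tested. MIR429 had 2 and 4 reads in DKO libraries, against 6 and 7 in WT libraries. MIR200B had 3 and 2 reads in DKO libraries, against 3 and 6 in WT libraries, MIR200A had 2 and 5 in each group, and MIR200C and MIR141 had 0 in every library. Since MIR200C and MIR141 lie inside MIR200CHG and the assignment of shared reads is not given, 0 reads does not show that they were silent. These counts are of labelled transcripts and not of mature microRNA.

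**Figure D3:**
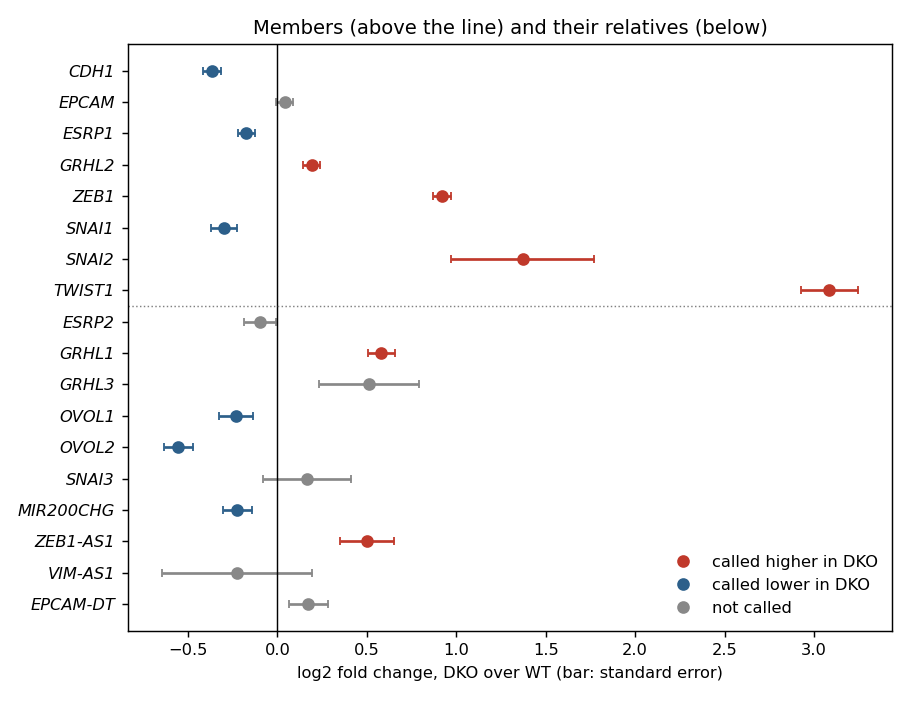
Log2 fold change of DKO over WT with its standard error for the 8 tested members (above the dotted line) and 10 relatives and partners (below). TWIST1 at 3.09 and SNAI2 at 1.37 are the highest, OVOL2 at -0.55 and CDH1 at -0.37 the lowest, and grey points were not called.

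Genes that these factors are known to act on, and that define the epithelial state, fell more often than they rose. Of 27 such genes 26 were tested, 14 were called lower, 3 higher and 9 not called, with a median log2 fold change of -0.20, against -0.03 over all tested protein-coding genes, of which 25.1% were called lower and 20.3% higher. ELF3, an epithelial ETS factor, had 89 and 102 reads in DKO libraries, against 162 and 124 in WT libraries (-0.63 ± 0.15, adjusted p = 0.000328). PKP3, a desmosomal plakophilin gene, had 248 and 256 reads in DKO libraries, against 388 and 315 in WT libraries (-0.53 ± 0.11, adjusted p = 1.58e-05). The largest change in the list was a rise, that of MAL2, which serves apical transport, with 3417 and 3352 reads in DKO libraries, against 1847 and 1904 in WT libraries (0.80 ± 0.05, adjusted p = 4.44e-32). The polarity gene PALS1 (0.13 ± 0.05, adjusted p = 0.0239) and the desmosomal cadherin gene DSC2 (0.18 ± 0.08, adjusted p = 0.0465) were the other 2 called higher. Both lost the call without DKO replicate 2, WT replicate 1 or WT replicate 2 (adjusted p of 0.136 to 0.297), and DSC2 also without DKO replicate 1 (0.0636). ELF3 (log2 -0.44, adjusted p = 0.159) and PKP3 (-0.38, adjusted p = 0.088) lost it without WT replicate 1. Without that library 2 genes of the list were called lower.

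Genes that rise in mesenchymal cells were called in both directions. Of 32 listed, 22 were tested, 9 were called higher and 8 lower, with a median of 0.12, and among all tested protein-coding genes 20.3% were called higher and 25.1% lower. The count and median include COL5A1, called higher with 15 and 22 reads in DKO libraries, against 6 and 7 in WT libraries. COL5A1 passed the filter on low counts only through the DKO libraries, where it is high. The calcium-binding protein gene S100A4 had 173 and 147 reads in DKO libraries, against 91 and 93 in WT libraries (0.75 ± 0.15, adjusted p = 1.24e-05). The receptor kinase gene AXL fell, with 4306 and 4058 reads in DKO libraries, against 6208 and 5701 in WT libraries (-0.56 ± 0.05, adjusted p = 1.38e-22). S100A4 was not called without WT replicate 1 (adjusted p = 0.0799), when 3 genes of the list were called higher and 1 lower. Without WT replicate 2, 4 genes were called higher. CDH2, the N-cadherin gene whose gain is a hallmark of the transition, had 1 and 6 reads in DKO libraries, against 3 and 5 in WT libraries, and was not tested.

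**Figure D4:**
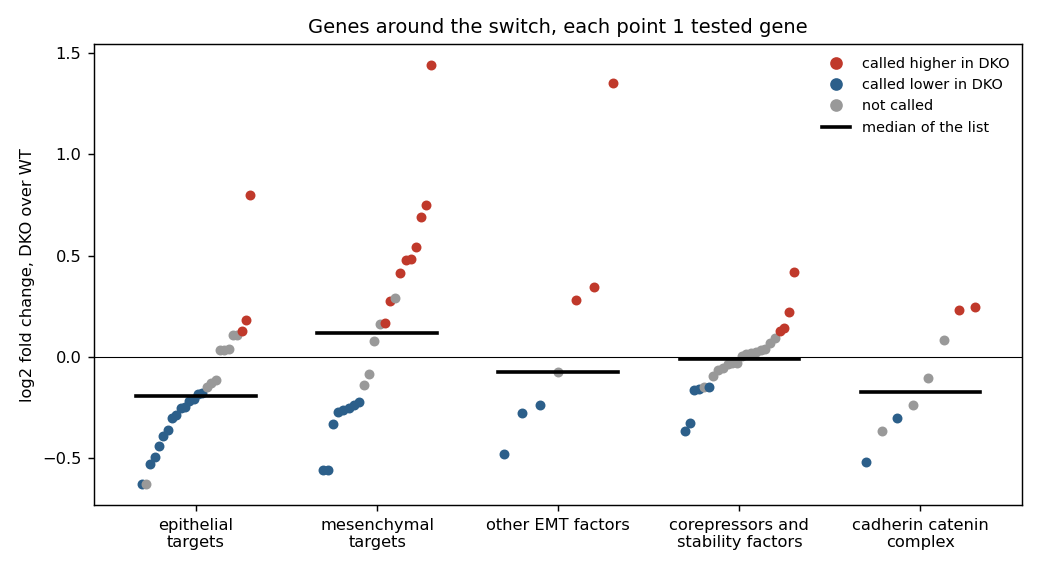
Log2 fold change of DKO over WT for each tested gene of 5 lists, with the median of each list as a bar. The epithelial targets lie mostly below 0 (median -0.20), the mesenchymal targets spread to both sides (median 0.12), and most corepressors and stability factors lie close to 0 (median -0.01).

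Other transcription factors of the programme were listed as well. Of these 14 genes 7 were tested, 3 were called higher and 3 lower, against 20.3% higher and 25.1% lower among all tested protein-coding genes. Outside chromosome 20 the counts were 3 higher and 2 lower of 6. KLF8, a Krüppel-like factor, had 54 and 60 reads in DKO libraries, against 22 and 21 in WT libraries (log2 fold change 1.35 ± 0.26, adjusted p = 4.88e-06). ID2, which encodes an inhibitor of helix-loop-helix factors, was also called higher (0.28 ± 0.05, adjusted p = 4.97e-06). The related inhibitor genes ID3 (-0.48 ± 0.07, adjusted p = 3.37e-09) and ID1 on chromosome 20 (-0.28 ± 0.05, adjusted p = 2.26e-07), and FOXC1 (-0.24 ± 0.08, adjusted p = 0.00999), were called lower. ID2, ID1 and FOXC1 lost the call when WT replicate 1 or WT replicate 2 was left out (adjusted p between 0.0766 and 0.239), and FOXC1 also without DKO replicate 2 (-0.13, adjusted p = 0.285). PRRX1, FOXC2, FOXQ1, TCF4, GSC, TBXT and ID4 had at most 12 reads in any library and were not tested.

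Corepressors that work with SNAI and ZEB proteins, and enzymes that set the stability of Snail, were next. Of 26 listed, 24 were tested, 4 were called higher, 5 lower and 15 not called, with a median of -0.01, and 45.5% of all tested protein-coding genes were called, so the count is near that share. The corepressor genes CTBP1 (-0.16 ± 0.05, adjusted p = 0.00421), CTBP2 (-0.16 ± 0.05, adjusted p = 0.00616) and RCOR1 (-0.15 ± 0.05, adjusted p = 0.00816) were called lower and SIN3A higher (0.22 ± 0.05, adjusted p = 2.75e-05). Among stability factors the deubiquitinase gene USP47 had 17563 and 18566 reads in DKO libraries, against 13279 and 12829 in WT libraries (0.42 ± 0.05, adjusted p = 3.34e-14). The ubiquitin ligase genes BTRC (0.14 ± 0.05, adjusted p = 0.00972) and FBXO11 (0.13 ± 0.05, adjusted p = 0.0253) were called higher, and FBXO45 (-0.37 ± 0.06, adjusted p = 2.59e-08) and the kinase gene CSNK1E (-0.33 ± 0.11, adjusted p = 0.0113) lower. All of these but USP47 and FBXO45 lost the call when WT replicate 1 or WT replicate 2 was left out (adjusted p between 0.0515 and 0.537). BTRC (log2 0.10), FBXO11 (0.08) and CSNK1E (-0.25) were also not called without DKO replicate 2, nor RCOR1 (-0.10) without DKO replicate 1.

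E-cadherin binds the cytoskeleton through catenins. Of 8 genes of this complex, all tested, 2 were called higher and 2 lower, which is near the 45.5% called among all tested protein-coding genes. CTNNB1, the β-catenin gene, had 12564 and 12651 reads in DKO libraries, against 10249 and 10326 in WT libraries (0.24 ± 0.05, adjusted p = 4.92e-06). JUP, which encodes the related plakoglobin, fell, with 1405 and 1601 reads in DKO libraries, against 2138 and 2034 in WT libraries (-0.52 ± 0.06, adjusted p = 2.45e-14). The linker genes AFDN (0.23 ± 0.05, adjusted p = 1.5e-05) and VCL (-0.30 ± 0.05, adjusted p = 1.57e-08) were called higher and lower. Without WT replicate 1 CTNNB1 (0.0681) and AFDN (0.0697) were not called, nor AFDN without WT replicate 2 (0.082).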

How the data were processed

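The data are nascent RNA libraries (TTchem-seq) from HCT116, 2 of DKO and 2 of WT, grouped by the labels. The authors deposited whole-number counts of reads for each Ensembl gene, not normalized. Tools named in the submitters' processing notes are STAR 2.7.3a and featureCounts 1.6, with hg38 as build. Their strand setting, feature type (exon or gene) and annotation release are not given in the sources used. Without a spike-in, a change of total transcription cannot be seen. Names came from a gene name table (42020 of 60656 IDs) and spans from RefSeq (GRCh38.p14, 40517 IDs). The test was the quasi-likelihood test of edgeR 4.0.16 (R 4.3.3), with TMM factors and group as the only term. The filter was filterByExpr with a minimum count of 10, applied as CPM at the median library size, and a minimum total of 15. Adjustment after Benjamini and Hochberg ran over 19103 genes. The test was also run on counts simulated from the mean levels and dispersions of these libraries. Such counts follow the model of the test, so that run cannot check the model on the real counts. CPM uses TMM library sizes. The common biological coefficient of variation was 3.46%.

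The members, lists and related genes were chosen with earlier results of these data known. Text names all members, every tested paralog, host and antisense partner, the neighbours of called members, and in each other list up to 3 called genes with the largest absolute change and a mean log2 CPM of at least 1, plus all genes of a direction with 5 or fewer calls. Counts of the cell type markers, CDH2 and the untested transcription factors were added after their values were seen. Across genes, log2 CPM (prior count 2) of replicates had r = 0.9969 for DKO and r = 0.9966 for WT, and replicates differed by more than sampling noise. The labels do not say whether they were separate cultures, so p-values measure only the spread between these libraries, which may be technical, and edgeR largely pools that spread over genes. Alternatives were DESeq2 size factors, total counts, upper quartile factors, TMM without chromosome 20, no filter, a minimum of 50 reads in 2 libraries, DESeq2 1.42.0 (Wald test), limma 3.58.1 (voom), a block for the replicate number, a test of protein-coding genes alone, and each library left out. Figures were drawn with matplotlib 3.10.9. Some genes that the naming rule covers are not reported here.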

Additional observations from a re-analysis of the deposited data

How the results depend on the processing

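With each library left out in turn, 1951 to 6570 genes were called, 1023 to 3127 higher and 928 to 3443 lower, against 7657, 3632 and 4025 with all libraries. Of the members 2 to 4 were then called higher and 1 to 3 lower, of the epithelial targets 1 to 2 higher and 2 to 14 lower, and of the mesenchymal targets 3 to 8 higher and 1 to 8 lower. Leaving out 1 library means that the remaining one of its group is taken to vary as the other group does, and the cause of the lost calls was not tested. With no filter beyond 1 read 3295 genes were called (1640 higher, 1655 lower), with 2 members higher, 1 epithelial target higher and 6 lower, and 4 mesenchymal targets higher and 2 lower. The Wald test of DESeq2 called 5003 genes, 2524 of them lower, and gave SNAI2 no adjusted p. Upper quartile factors put 5 epithelial targets higher, and 55.9% of called genes higher against 47.4%. TWIST1, ZEB1 and CDH1 kept direction and call in all 14 settings. SNAI3 (-0.0278 without WT replicate 1 to 0.384 without WT replicate 2) and VIM-AS1 (-0.441 without WT replicate 1 to 0.0227 without WT replicate 2), neither called, changed sign. Same-numbered libraries did not deviate together (r = 0.0114), so the numbers are not known to pair libraries. With the replicate block 7820 genes were called, CDH1 stood at -0.367 and TWIST1 at 3.09, and of 58 named genes DSC2 lost its call (adjusted p = 0.056) and ARHGAP12 gained one (0.00559). The level per kb of exons was not run. VIM, ZEB2 and SNAI2 are limited by depth.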

Other observations

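Beside the nearly silent members, well transcribed neighbours differed between the groups, though these were chosen with the values in view. ST8SIA6, a sialyltransferase gene 77.8 kb from VIM, had 746 and 820 reads in DKO libraries, against 331 and 313 in WT libraries (log2 fold change 1.23 ± 0.09, adjusted p = 1.94e-28). TRDMT1, the RNA methyltransferase gene on the other side of VIM, was not called (-0.06 ± 0.07, adjusted p = 0.497). GTDC1, a glycosyltransferase gene 51 kb from ZEB2, had 6140 and 6253 reads in DKO libraries, against 7995 and 7972 in WT libraries (-0.42 ± 0.05, adjusted p = 9.19e-15). These 3 genes were not run under the other settings.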
